A study of Mus musculus with 12 samples.

Results

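The late limb line of peripheral neural stem cells (pNSCs), labelled elpNSCs-late, was compared with neural stem cells (NSCs) of the brain, labelled Control-NSC. Its members were every gene with a probe detected on at least 2 of the 12 arrays of the series, a probe counting as detected when its detection p-value lay under 0.05. That left 10144 genes of the 16593 named on the array, and the groups themselves were taken from the sample labels, which gave 4 of the 12 arrays. elpNSCs-late cells came from mouse embryonic limb, and the label adds "late" without giving a passage or a date. Control-NSC cells were brain NSCs, which the study's methods derive from the whole brain of adult or postnatal mice. The methods give a derivation through passaged limb cells in serum medium and low-pH treatment, and another from freshly isolated limb cells, both ending in NSC medium with EGF and bFGF. Picked clusters were expanded into lines that the study describes as usually clonal. Both groups carried the same strain label, a mixture of C57BL/6, CD1 and C3H, and no transgene, deletion or drug is labelled for either. The text on the arrays speaks of lines obtained after low-pH treatment, and the labels do not say by which route elpNSCs-late was made.

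Each group was a single line label measured on 2 arrays, so the tissue of origin and the donor, the time in culture or a low-pH treatment of that line cannot be told apart. The methods call the replicates biological, but nothing says that they were separate cultures. The p-values rest only on the spread between replicate arrays, pooled over all 6 groups of the series, and that spread may be technical. The other pNSC groups, elpNSCs-early from embryonic limb and alpNSCs-early and alpNSCs-late from adult lung, served as a second reference, and the group Fibroblasts is cited for single genes. The 4 arrays had between 11801 and 12536 probes detected, and their median raw intensities lay between 108.2 and 115.7. Normalized values correlated across the genes tested at 0.993 between the elpNSCs-late arrays and at 0.996 between the Control-NSC arrays. Between arrays of the 2 groups the correlation was 0.971 to 0.973.

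NSCs are self-renewing cells that can give rise to neurons, astrocytes and oligodendrocytes. They are grown with EGF and bFGF and are recognised by transcription factors such as Sox2 and by the intermediate filament nestin. Neural progenitors also keep a record of the body level they arose from, with Otx and En genes active in the anterior brain and Hox genes active from the hindbrain down the trunk.

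The late limb line and brain NSCs differed at 1553 of the 10144 genes (15.3%) at a Benjamini-Hochberg adjusted p under 0.05 (limma). Of these, 763 genes (7.52%) were higher in elpNSCs-late and 790 (7.79%) were lower. Values are normalized log2 intensities, so a difference of 1 is a 2-fold change. The median called rise was 0.68 and the median called fall was −0.73. At least 4-fold changes numbered 40 rises and 75 falls, and changes of at least 8-fold numbered 12 rises and 38 falls. All 1553 called genes had arrays that did not overlap between the groups, as did 53.3% of all genes tested. The number of calls depended on each Control-NSC array, with 448 genes higher and 492 lower without Control-NSC replicate 1, and 452 higher and 507 lower without Control-NSC replicate 2. Median scaling in place of quantile normalization gave 977 genes higher and 623 lower, so that 61.1% of calls were rises in place of 49.1%, while the median difference of all genes moved from 0.0055 to 0.059.

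**Figure D1:**
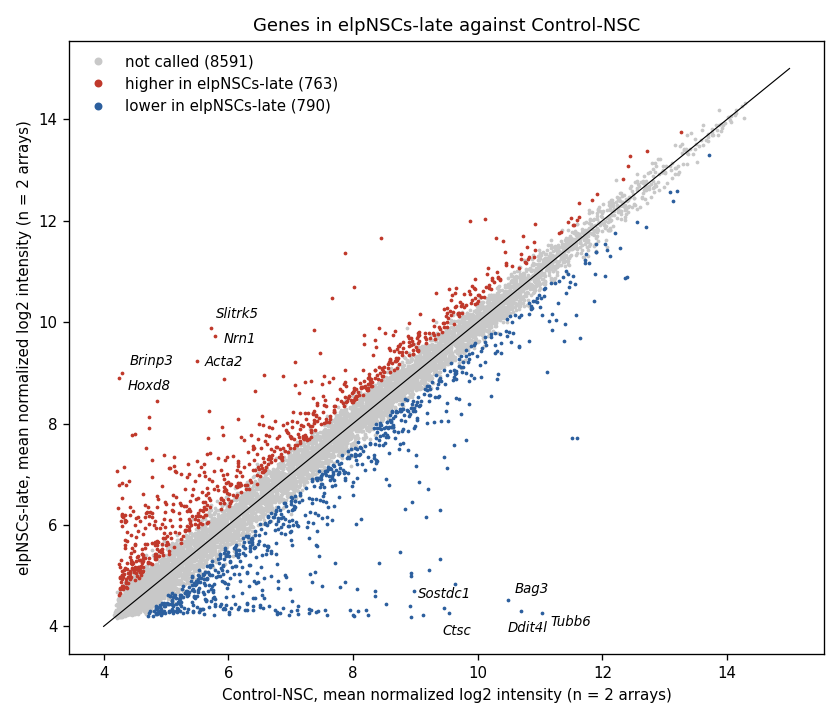
Mean normalized log2 intensity of each of the 10144 genes in Control-NSC (horizontal axis) and elpNSCs-late (vertical axis), 2 arrays a group, with the 5 genes of largest rise and the 5 of largest fall named. Red points are the 763 genes called higher, blue points the 790 called lower, and the line marks equal levels; the largest falls sit at the floor of the vertical axis.

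The same arrays of elpNSCs-late were also set against the mean of the other 3 pNSC groups. There 998 genes (9.84%) were higher and 1008 (9.94%) were lower in elpNSCs-late, 2006 genes (19.8%) in all. Without elpNSCs-late replicate 2 these counts fell to 557 and 560. Both comparisons share the elpNSCs-late arrays, so their values are given side by side and not counted against each other.

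The label of a neural stem cell was checked with defining markers. Of 8 NSC markers tested, 7 (Sox2, Nes, Vim, Fabp7, Slc1a3, Nr2e1 and Sox9) were detected on both elpNSCs-late arrays and all 8 on both Control-NSC arrays. The exception was Hes5, an effector of Notch signalling, which was detected on 1 elpNSCs-late array. All 5 oligodendrocyte lineage markers (Olig1, Olig2, Pdgfra, Cspg4 and Mbp) were detected on both elpNSCs-late arrays, and all but Mbp on both Control-NSC arrays. Of 7 fibroblast markers, Acta2 alone was detected on both elpNSCs-late arrays, and Acta2 and Thy1 on both Control-NSC arrays. Col1a1, the main collagen chain of fibroblasts, was not detected in either group. Neither neural crest marker tested (Ngfr and Tfap2a) was detected on both elpNSCs-late arrays, and no member of the endothelial and blood cell lists was. Prrx1, a transcription factor of limb mesenchyme, was detected on both elpNSCs-late arrays and on 1 Control-NSC array, at 5.65 and 4.96 against 4.72 and 5.13, and did not differ (0.38 ± 0.21 SE, adjusted p = 0.29). The probes of Gfap, Nanog, Pax6 and Sox1 were detected on too few arrays, and these genes were not analysed here.

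Sox2, Olig2 and Fabp7 were not called between the 2 groups. Sox2, the transcription factor that maintains neural progenitors, read 8.27 and 8.69 in elpNSCs-late and 8.51 and 8.08 in brain NSCs. The difference was 0.18 ± 0.20 (SE) with an adjusted p of 0.64. Olig2, a factor of ventral progenitors and oligodendrocyte precursors, read 7.07 and 7.57 against 7.39 and 7.60 (−0.17 ± 0.28, adjusted p = 0.79). Both sets of arrays overlapped. Fabp7, a fatty acid binding protein of radial glia, lay 0.37 ± 0.21 higher without passing the test (adjusted p = 0.30).

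Other members of the NSC list did change. Of 20 members tested, 4 rose (20%, beside 7.52% of all genes), 4 fell (20%, beside 7.79%) and 12 were not called. The list's median was 0.0011 beside 0.0055 for all genes. Nes, which encodes nestin, read 8.42 and 8.67 in elpNSCs-late and 10.05 and 10.37 in brain NSCs, a 3.17-fold fall (−1.66 ± 0.14, adjusted p = 4.20e-06). All values of the limb line lay below those of the brain line. Against the other pNSC groups Nes was lower by nearly the same log2 amount (−1.64). Hes5 fell from 6.55 and 6.53 to 4.79 and 4.64 (−1.82 ± 0.12, adjusted p = 2.83e-07) and stood at 8.85, 10.83 and 6.69 in elpNSCs-early, alpNSCs-early and alpNSCs-late. The late limb line thus had the lowest Hes5 level of the NSC groups. Nr2e1, an orphan receptor that sustains adult NSCs, fell 2.58-fold. Vim, the gene of vimentin, rose 2.01-fold and Sox9, a factor of glial specification, rose 1.90-fold. Tnc, the matrix protein tenascin C of the stem cell niche, rose from 9.96 and 10.27 to 12.02 and 12.04 (3.76-fold, adjusted p = 5.95e-06).

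The 15 largest rises included neural, Hox, muscle and matrix genes. Brinp3, a neural protein induced by retinoic acid and BMP, read 8.94 and 9.04 in elpNSCs-late and 4.22 and 4.35 in brain NSCs, where its probe was not detected (4.70 ± 0.12, adjusted p = 1.05e-10). Where a probe was detected on no array of the dimmer group, the fold is given as a lower bound. It was taken against the mean over that group's arrays of the lowest signal among detected probes, or of the probe's own signal where that was higher. For Brinp3 it was at least 18.9-fold. Slitrk5, a synaptic transmembrane protein, rose 17.9-fold (9.61 and 10.15 against 5.76 and 5.67), and Nrn1, the neurite outgrowth factor neuritin, rose 15.4-fold (9.60 and 9.85 against 5.65 and 5.92). Gap43, the growth cone protein, rose 11.3-fold, from 7.78 and 7.95 to 11.35 and 11.38. These arrays lay far apart between the groups, with replicates of each group within 0.6 of each other. Slitrk5, Gap43 and Brinp3 were also high in elpNSCs-early, at 9.40, 10.99 and 9.23. Nrn1 was higher in the late limb line than in the other pNSC groups (2.64 ± 0.13, adjusted p = 2.82e-08).

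Acta2, smooth muscle actin, read 9.18 and 9.29 against 5.60 and 5.39 in brain NSCs (13.4-fold, adjusted p = 5.52e-10), with 12.13 in Fibroblasts. Its other probes gave log2 differences of 0.44 to 2.01. Col6a1, a collagen VI chain, rose at least 8.86-fold by its brightest probe, and its other probes gave −0.0086 to 2.93, so the sizes for both genes depend on the probe. Myh8, a perinatal skeletal muscle myosin, rose 7.72-fold (8.92 and 8.84 against 5.88 and 5.98), and was at 9.51 in elpNSCs-early. Fgf13, a neuronal protein that binds sodium channels, rose at least 8.08-fold, and Ptprd, a receptor phosphatase of synapses, 7.09-fold.

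**Figure D2:**
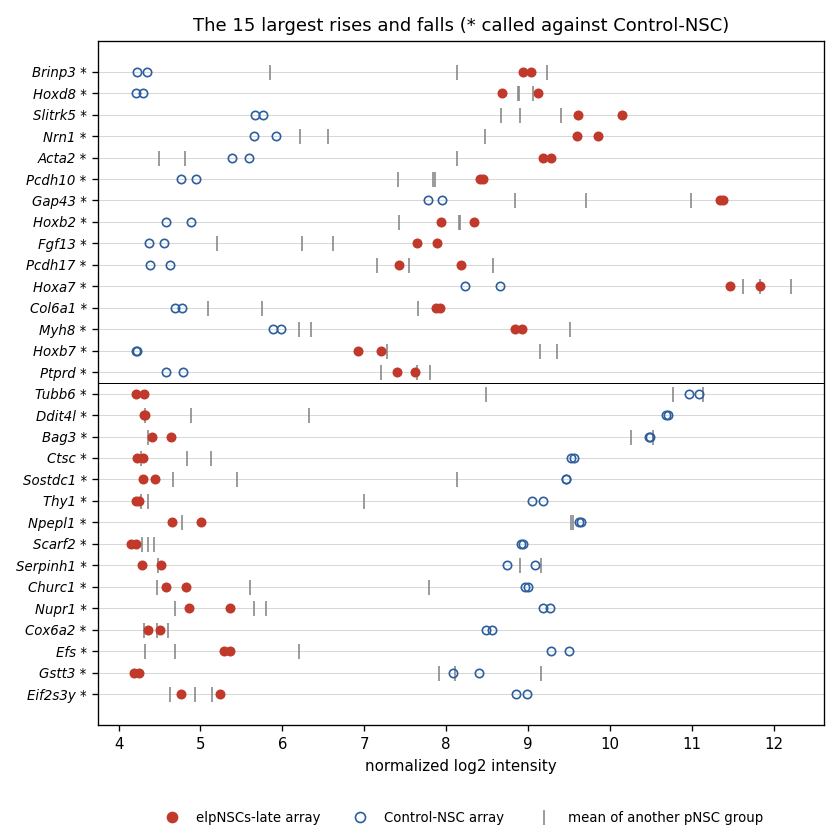
Normalized log2 intensity (horizontal axis) of the 15 genes with the largest rise (above the line) and the 15 with the largest fall (below it). Filled points are the 2 elpNSCs-late arrays, open points the 2 Control-NSC arrays and ticks the means of the other 3 pNSC groups. The 30 genes were picked from those whose elpNSCs-late and Control-NSC arrays do not overlap, and the ticks lie on either side from gene to gene.

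The largest falls reached the background of the array in elpNSCs-late. Tubb6, a beta-tubulin, read 4.22 and 4.31 in elpNSCs-late and 11.08 and 10.97 in brain NSCs, at least 79.2-fold lower (−6.76 ± 0.12, adjusted p = 6.03e-12). The other pNSC groups had means of 8.48 to 11.14, so the late limb line was the pNSC group without detectable Tubb6. Ddit4l, a relative of the mTOR inhibitor Ddit4, read 4.30 and 4.32 against 10.71 and 10.69 (at least 63.0-fold lower). It was lower in all other pNSC groups as well, at 6.32, 4.89 and 4.32. Sostdc1, a secreted antagonist of BMP and Wnt, was at least 26.8-fold lower, and Ctsc, a lysosomal dipeptidyl peptidase, at least 28.3-fold lower by its brightest probe. The other Ctsc probes gave smaller log2 differences of −3.83 and −2.64. Thy1, a surface glycoprotein of neurons and fibroblasts, was at least 21.1-fold lower.

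Some of these falls were shared by the early limb line and not by the lung lines. Bag3, a partner of the chaperone Hsp70, read 4.41 and 4.64 in elpNSCs-late and 10.48 and 10.47 in brain NSCs (at least 54.1-fold lower, adjusted p = 1.54e-11). Its means were 4.36 in elpNSCs-early, 10.25 in alpNSCs-early and 10.53 in alpNSCs-late. Serpinh1, the collagen chaperone of the endoplasmic reticulum, was at least 18.3-fold lower than in brain NSCs, at 4.52 and 4.29 against 9.08 and 8.75. Its means were 4.48, 9.16 and 8.90 in the same 3 groups. Npepl1, an aminopeptidase-like protein, and Timp1, an inhibitor of matrix metalloproteinases, had the same arrangement, with 27.9-fold and 9.99-fold falls. In each case both limb groups were low and both lung groups read within 0.5 of brain NSCs. Gstt3, a glutathione S-transferase, differed from this: it was at least 11.5-fold lower than in brain NSCs and 4.17 ± 0.11 lower on the log2 scale than in the other pNSC groups, all of which read 7.91 to 9.15.

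Genes of the amino acid stress response had the highest share of falls of the 42 lists examined. The lists were written with earlier results of these data known, so this rank is a description and not independent support. ATF4 is a transcription factor that is translated when amino acids run short or the endoplasmic reticulum is stressed, and it binds sites of the form TGATGNAA in genes of amino acid uptake and synthesis. Of 26 listed genes tested, 17 fell (65.4%, beside 7.79% of all genes), 1 rose and 8 were not called. The median difference was −0.58 beside 0.0055 for all genes, and 24 of 26 lay below 0. Between arrays the summed linear level of the list was 18542 to 20840 in elpNSCs-late and 27637 to 27873 in brain NSCs. Without Control-NSC replicate 1 the number of falls was 11. In RNA of whole cultures, fewer cells of a kind and less RNA per cell cannot be told apart.

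The promoters of 4 list members are shown because they carry the letters of the ATF4 site and belong to genes that fell. Each run holds the 200 bases before the transcription start (RefSeq, GRCm38.p6) on the gene's own strand, 5′ to 3′, and capitals mark TGATGNAA read on either strand. The runs lie at chr7:126625471-126625670 (Nupr1, minus strand), chr3:50443614-50443813 (Slc7a11, minus strand), chr2:119351042-119351241 (Chac1, plus strand) and chr6:7693210-7693409 (Asns, minus strand).
Nupr1: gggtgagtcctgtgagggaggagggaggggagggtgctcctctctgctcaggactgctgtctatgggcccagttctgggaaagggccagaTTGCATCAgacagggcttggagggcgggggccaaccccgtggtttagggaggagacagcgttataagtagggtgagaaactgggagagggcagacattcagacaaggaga
Slc7a11: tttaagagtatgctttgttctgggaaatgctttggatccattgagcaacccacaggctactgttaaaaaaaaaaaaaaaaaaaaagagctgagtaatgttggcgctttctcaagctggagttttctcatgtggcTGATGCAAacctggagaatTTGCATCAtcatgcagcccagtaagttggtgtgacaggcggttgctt
Chac1: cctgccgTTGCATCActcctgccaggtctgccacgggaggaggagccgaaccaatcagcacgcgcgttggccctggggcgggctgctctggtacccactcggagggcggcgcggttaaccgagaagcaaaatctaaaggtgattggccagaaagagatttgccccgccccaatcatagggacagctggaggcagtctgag
Asns: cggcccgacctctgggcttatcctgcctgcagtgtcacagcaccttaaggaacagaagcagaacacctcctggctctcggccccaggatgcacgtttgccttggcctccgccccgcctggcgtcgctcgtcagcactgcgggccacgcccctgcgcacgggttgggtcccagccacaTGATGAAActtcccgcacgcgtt

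The first base of the match lay 110 bases before the start in Nupr1, 66 and 47 in Slc7a11, 193 in Chac1 and 23 in Asns. In windows of 300 bases (250 before the start and 50 after), 8 of 25 windows of the list (32%) held a match, beside 264 of 10597 windows (2.49%) of the genes tested and 1304 of 32851 windows (3.97%) in all. Of the 26 genes, 22 had a window. A match was found in 6 of 14 genes that fell and in 2 of the 8 that did not. The list was drawn up around the ATF4 response, so its higher share may come from how its members were chosen, which was not tested. A match is a description of the letters and not a measured site.

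Among the effectors of the response, Nupr1, a small stress-induced nuclear protein, read 4.86 and 5.36 in elpNSCs-late and 9.27 and 9.18 in brain NSCs (17.3-fold lower, adjusted p = 2.66e-09). It was also low in the other pNSC groups, at 4.69 to 5.81. Chac1, which degrades glutathione, read 6.98 and 8.16 against 9.64 and 9.59 (−2.04 ± 0.27, adjusted p = 0.00019). The elpNSCs-late arrays differed from each other by more than 1 here and still lay below both brain arrays. Against the other pNSC groups Chac1 was higher by 1.77 ± 0.22. Ddit3, the stress factor CHOP, fell 2.97-fold.

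The factors themselves and the transporters fell too. Atf4 read 6.82 and 6.76 against 8.63 and 8.51 (3.43-fold lower, adjusted p = 6.91e-05), and its relative Atf5 fell 2.69-fold. Slc7a11, the light chain of the cystine transporter, was not detected in elpNSCs-late, at 4.51 and 4.59 against 6.26 and 6.52 (at least 3.19-fold lower). Slc7a5 and Slc3a2, the chains of the large neutral amino acid transporter, fell 2.71-fold and 2.13-fold. Asns, asparagine synthetase, fell 1.47-fold from 11.77 and 11.66 to 11.07 and 11.25, while it was 0.74 ± 0.10 higher than in the other pNSC groups. Over the whole list of 26 that second comparison gave 6 genes higher and 2 lower, beside 9.84% and 9.94% of all genes. The median was 0.027. Ddit4, an inhibitor of mTOR complex signalling, was the rise (0.66 ± 0.12). Psat1, an enzyme of serine synthesis, was not called (−0.33 ± 0.12, adjusted p = 0.10).

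**Figure D3:**
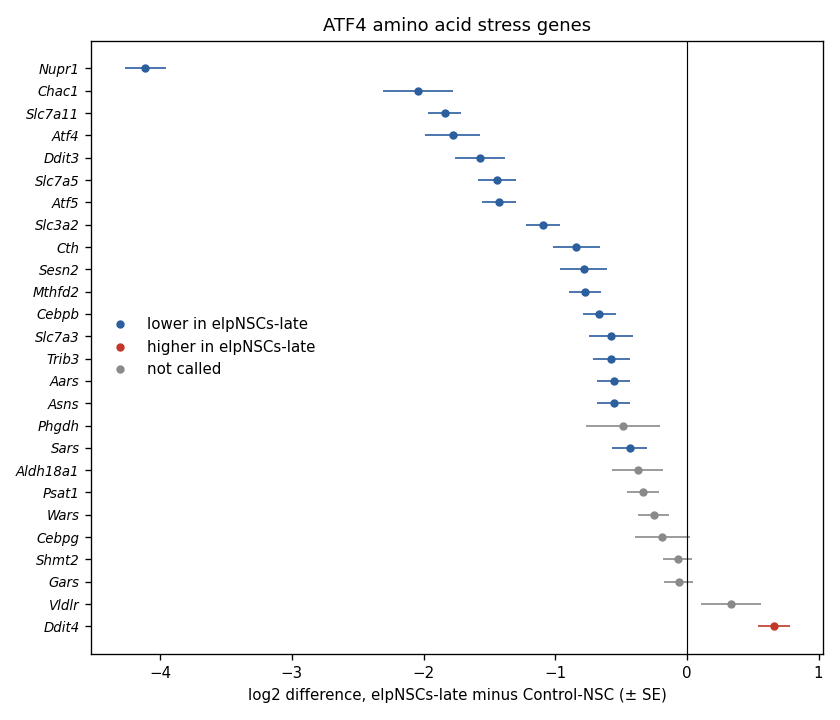
Log2 difference of elpNSCs-late minus Control-NSC (points) with its standard error (bars) for the 26 genes of the ATF4 list, 2 arrays a group. The 17 genes called lower run from Nupr1 at −4.11 to Sars at −0.44, and Ddit4 at 0.66 is the gene called higher.

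A part of the Hox genes rose in the late limb line. They encode homeodomain factors arranged in 4 clusters, and their order along the cluster follows the body axis. Of 28 Hox genes tested, 10 rose (35.7%, beside 7.52% of all genes) and none fell, and 18 were not called. The median difference was 0.12, and 12 of the 28 lay below 0. Without elpNSCs-late replicate 1, with a stricter detection filter, with the mean over probes or with the replicate number as a block, 1 gene fell. On both arrays, 13 were detected in elpNSCs-late and 6 in brain NSCs, and 11 were at background in both. Hoxd8 read 8.68 and 9.12 against 4.21 and 4.30 (at least 17.7-fold higher, adjusted p = 5.48e-10). Hoxb2 rose 10.6-fold, from 4.58 and 4.88 to 8.34 and 7.93. Hoxa7 rose 9.21-fold, from 8.66 and 8.23 to 11.84 and 11.46. Hoxb7, Hoxb4, Hoxd4 and Hoxd9 were not detected in brain NSCs and rose at least 4.95-fold, 3.40-fold, 4.07-fold and 2.45-fold. Brain NSCs did express some Hox genes: Hoxa5 read 10.36 and 10.21 there and rose 2.58-fold to 11.66 and 11.65.

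Several Hox genes of the lung lines were at background or at a lower level in the limb line. Hoxc6 was at background in elpNSCs-late and brain NSCs (4.37 and 4.29 against 4.32 and 4.37), and read 10.20 in alpNSCs-early and 7.85 in alpNSCs-late. Hoxb6 was at background in both as well, with 7.17 and 6.74 in the lung groups. Hoxb7 read 6.92 and 7.21 in elpNSCs-late and 9.15 and 9.35 in the lung groups, and was lower in elpNSCs-late than in the other pNSC groups (−1.53 ± 0.11, adjusted p = 8.93e-07). Against the other pNSC groups 1 of the 28 Hox genes was higher and 7 were lower, beside 9.84% and 9.94% of all genes. Hoxa13, Hoxd11, Hoxd12 and Hoxd13, members that pattern the distal limb, were not called against brain NSCs (−0.026, 0.26, −0.088 and −0.050). A probe at background in both groups, as for 11 of the 28 Hox genes, could show no difference. Among the cofactors that bind DNA with Hox proteins, Pknox2 rose (0.83 ± 0.15) and 6 others were not called.

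**Figure D4:**
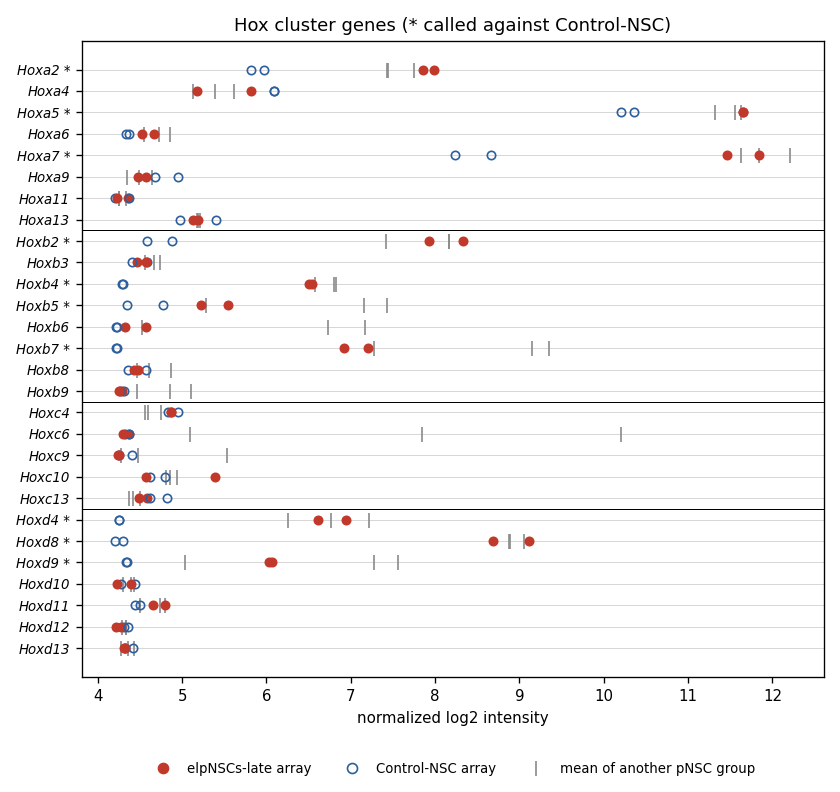
Normalized log2 intensity (horizontal axis) of the 28 Hox genes tested, in cluster order, with filled points for the 2 elpNSCs-late arrays, open points for the 2 Control-NSC arrays and ticks for the means of the other 3 pNSC groups. An asterisk marks the 10 genes called higher; Hoxc6 has ticks at 5.09, 7.85 and 10.20 while the arrays of the other 2 groups lie below 4.5.

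Some genes of the anterior brain fell. Of 9 forebrain and midbrain genes tested, 4 fell (44.4%, beside 7.79% of all genes), 1 rose and 4 were not called, with a median of −0.049. Otx2, which specifies forebrain and midbrain, was not detected in elpNSCs-late, at 4.30 and 4.36 against 7.25 and 7.42 (at least 6.12-fold lower, adjusted p = 1.92e-09). En2, a gene of the midbrain and hindbrain border, fell 5.20-fold (7.08 and 7.17 against 9.52 and 9.49), and Otx1 fell 2.93-fold (8.15 and 8.21 against 9.82 and 9.65). Otx1 remained detected, and was higher than in the other pNSC groups (1.26 ± 0.11). Irx3 fell 1.51-fold. Gbx2, expressed on the hindbrain side of that border, rose 1.37-fold, and Gbx2 was lower than in the other pNSC groups (−0.85 ± 0.08).

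Other progenitor factors changed in both directions, 3 higher (15%) and 4 lower (20%) of 20, beside 7.52% and 7.79% of all genes. Zic1, a dorsal neural factor, was at background in elpNSCs-late and elpNSCs-early (4.36 and 4.27 on the late arrays, and a mean of 4.31 in the early group). It read 8.17 and 8.26 in brain NSCs and 9.67 and 9.58 in the lung groups. The fall was at least 11.3-fold (adjusted p = 3.21e-10). Nkx6-1, a ventral neural factor, had the reverse arrangement. It read 6.43 and 6.00 in elpNSCs-late and 6.50 in elpNSCs-early, and was not detected in brain NSCs at 4.29 and 4.30 (at least 2.75-fold higher). Pou3f1 fell 2.24-fold. Tfap2a, a factor of neural crest, was at least 5.24-fold lower and was not detected in the limb line (4.33 and 4.33 against 7.14 and 7.07). Ngfr, the neural crest receptor, was not called (0.27 ± 0.18, adjusted p = 0.40), but was called higher without elpNSCs-late replicate 2 (0.58, adjusted p = 0.044). Of 14 neural crest and Schwann cell genes tested, 4 rose (Gap43, Egr2, Gas7 and Zeb2), 3 fell (Tfap2a, Ednrb and Sox5) and 7 were not called, with a median of 0.21. The shares of rises and falls were 28.6% and 21.4%, beside 7.52% and 7.79% of all genes. With the mean over kept probes 1 of the 14 fell.

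Of 48 cell adhesion and axon guidance genes tested, 14 rose (29.2%, beside 7.52% of all genes), none fell and 34 were not called, with a median of 0.16. A normexp offset of 50 or no background correction called 2 of them lower, and each of 3 other filter or probe settings called 1. Without Control-NSC replicate 1 the number of rises was 8, and without either Control-NSC replicate 2 or elpNSCs-late replicate 2 it was 9. The protocadherins Pcdh10 and Pcdh17 rose most beside Slitrk5: Pcdh10 read 8.45 and 8.42 against 4.76 and 4.94 (12.0-fold), and Pcdh17 read 7.43 and 8.18 against 4.38 and 4.63 (at least 8.27-fold). Cntn1, the adhesion protein contactin, rose 2.97-fold, Lrrtm3 2.20-fold and Epha7, an ephrin receptor, at least 1.91-fold. The guidance receptors Robo1, Unc5b and Unc5c rose by 0.68, 0.74 and 0.77 on the log2 scale.

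Markers of precursor and differentiated neural cells were higher for several genes. In the oligodendrocyte lineage, 6 of 17 genes rose (35.3%, beside 7.52% of all genes) and 1 fell (5.88%, beside 7.79%). Gpr17, a receptor of committed oligodendrocyte precursors, read 6.95 and 6.80 in elpNSCs-late and 4.51 and 4.29 in brain NSCs, with 4.32 to 4.60 in the other pNSC groups. It rose at least 4.35-fold (adjusted p = 1.32e-07), and its level in elpNSCs-late was above that of every other group. Ugt8a, which makes the galactolipids of myelin, rose at least 4.23-fold, and the precursor markers Pdgfra and Cspg4 rose 2.11-fold and 1.81-fold. Bcas1, a gene of newly formed oligodendrocytes, fell 1.77-fold. The summed level of the list was 20054 to 20900 in elpNSCs-late and 21806 to 24520 in brain NSCs, so the sum did not rise with these genes.

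Of 16 neuronal genes, 6 rose (37.5%, beside 7.52% of all genes) and 1 fell (6.25%, beside 7.79%). Elavl4, a neuronal RNA-binding protein, read 7.03 and 7.28 against 4.27 and 4.38 (at least 5.27-fold, adjusted p = 1.04e-07). Isl1, a factor of motor and sensory neurons, read 6.10 and 6.07 against 4.29 and 4.26, with 4.28 to 4.30 in the other pNSC groups. Isl1 was at least 2.52-fold higher and was detected in no other pNSC group. Rbfox3, the neuronal antigen NeuN, rose at least 2.52-fold, while Map2, a neuronal microtubule protein, fell 1.41-fold. The summed level of the list was lower, at 4839 to 5021 against 5715 to 6063. Astrocyte genes were split, with 4 of 19 higher (21.1%), among them the receptor Fgfr3 (3.12-fold), and 3 lower (15.8%), among them Clu and Apoe. A single fall of these 3 was called without elpNSCs-late replicate 1 or without Control-NSC replicate 2, and Map2 was no longer called lower without elpNSCs-late replicate 1 or without either Control-NSC array.

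Of 30 fibroblast and matrix genes, 4 rose (13.3%, beside 7.52% of all genes) and 5 fell (16.7%, beside 7.79%). With the deposited log2 values 7 rose. The summed level of the list was 4301 to 4325 in elpNSCs-late and 4430 to 4737 in brain NSCs. Acta2, Col6a1, Cd44 (0.76) and Fstl1 (0.46) rose, and Thy1, Timp1, Ccn2, Fbln2 and Snai1 fell. Ccn2, a target of YAP signalling, read 4.70 and 4.55 against 6.63 and 6.45 (at least 3.54-fold lower).

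Of 23 genes of glutathione and the NRF2 response, 8 fell (34.8%, beside 7.79% of all genes), 15 were not called and none rose. The median was −0.50. Gstt1, a glutathione transferase, fell 5.51-fold (4.79 and 4.97 against 7.36 and 7.33), and Nqo1, a quinone reductase induced by NRF2, was at least 1.99-fold lower. Mgst1 fell by 0.52 on the log2 scale by its brightest probe, whereas its other probe rose by 4.48. The number of falls was 5 without Control-NSC replicate 2. Of 17 genes of MHC class I and antigen processing, 7 fell (41.2%, beside 7.79% of all genes) and none rose. H2-K1, a class I heavy chain, was at least 2.99-fold lower, at 4.33 and 4.56 against 6.40 and 6.20. Ifitm3, an antiviral membrane protein, fell 14.7-fold, from 11.45 and 11.73 to 7.82 and 7.62, and read 8.14 in elpNSCs-early and 11.18 and 11.12 in the lung groups. The interferon list as a whole had 2 genes higher (Rsad2 and Ifit2) and 3 lower of 20. These shares were 10% and 15%, beside 7.52% and 7.79% of all genes.

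Of 23 lysosomal genes, 5 fell (21.7%, beside 7.79% of all genes) and 2 rose (8.7%, beside 7.52%). The number of rises was lower with any single array left out. Besides Ctsc, the protease cathepsin H (Ctsh) fell 8.92-fold (5.14 and 5.38 against 8.44 and 8.39), and cathepsin Z (Ctsz) was at least 2.46-fold lower. Among 17 heat shock and folding genes 5 fell (29.4%) and 1 rose (5.88%). Hspa5, the chaperone BiP of the endoplasmic reticulum, fell 1.79-fold beside the larger falls of Bag3 and Serpinh1.

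Of 21 mitotic genes tested, 7 fell (33.3%, beside 7.79% of all genes) and none rose against brain NSCs, with a median of −0.36. Against the other pNSC groups 18 were higher and none was lower, beside 9.84% and 9.94% of all genes, with a median of 0.60. Pttg1, the securin that holds sister chromatids together, fell 2.45-fold (5.0 and 4.79 against 6.31 and 6.07). The count of falls was 3 without elpNSCs-late replicate 2, 4 without Control-NSC replicate 1 and 4 with the deposited log2 values. Of 29 genes of DNA replication, 2 were higher (6.9%, beside 7.52% of all genes) and none was lower against brain NSCs. Against the other pNSC groups 16 of the 29 were higher and none was lower, beside 9.84% and 9.94% of all genes, with a median of 0.35.

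Inhibitors of cyclin-dependent kinases and D-type cyclins had 5 of 11 higher (45.5%, beside 7.52% of all genes) and 2 lower (18.2%, beside 7.79%). Cdkn2b, the inhibitor p15, read 8.87 and 9.06 against 6.61 and 6.54 (5.23-fold higher, adjusted p = 3.52e-08). Cdkn2a, at the same locus, rose 1.69-fold. Only 1 of these rises was called without Control-NSC replicate 1, and 3 without any other single array. Of 21 genes listed as p53 targets, 5 fell (23.8%) and 1 rose (4.76%), with Ddit4l, counted in this list, the largest fall. The other 15 were not called, among them Cdkn1a (−0.19) and Mdm2 (−0.17). The number of falls was lower without Control-NSC replicate 1. Against the other pNSC groups 14 of the 21 were lower and 1 was higher, beside 9.94% and 9.84% of all genes, with a median of −0.64.

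Genes of glycolysis and the hypoxia response leaned upward. Of 28 tested, 7 rose (25%, beside 7.52% of all genes) and 2 fell (7.14%, beside 7.79%). The median was 0.41, and 25 lay above 0. The summed level of the list was 43421 to 53731 in elpNSCs-late and 42011 to 42991 in brain NSCs, so the lower elpNSCs-late array lay close to the brain range. Egln3, an oxygen-sensing prolyl hydroxylase, read 9.07 and 9.37 against 7.22 and 6.94 (4.41-fold higher). Ndrg1, a gene induced by hypoxia, read 6.59 and 7.49 against 4.93 and 5.38 (3.69-fold). The glucose transporter Slc2a3 rose 3.02-fold and the kinase Pdk1, which diverts pyruvate from mitochondria, 2.70-fold. For the last 3 genes elpNSCs-late replicate 2 lay 0.9 or more above replicate 1. More genes of the list rose when replicate 1 was left out, and fewer when replicate 2 was left out. The vasodilator peptide gene Adm, also induced by hypoxia, was at least 2.49-fold lower, and the neuronal enolase Eno2 at least 1.65-fold lower. None of 36 genes of the respiratory chain was called by limma.

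Of 21 Wnt pathway genes, 5 fell (23.8%, beside 7.79% of all genes) and none rose. Median scaling, a normexp offset of 50 and no background correction each called 1 higher. Wnt5a, a ligand, fell 3.57-fold (7.18 and 7.16 against 9.03 and 8.99), Fzd10, a receptor, 3.12-fold and Wnt7b, a ligand, 2.79-fold. Among 19 genes of BMP and TGF-beta signalling, the receptor Tgfbr2 fell 5.63-fold by its brightest probe while its other probe gave a log2 difference of −0.091. Of these genes 4 rose (21.1%, beside 7.52% of all genes) and 1 fell (5.26%, beside 7.79%). The BMP targets Id1 (0.71) and Id2 (1.19) were among the rises. The BMP targets Id3 (0.27), Id4 (−0.096) and Smad6 (0.022) were not called. The number of rises was 1 without elpNSCs-late replicate 1 or Control-NSC replicate 2 and 2 without either of the other arrays. Fitting only the arrays compared gave 2 rises. Of 21 Notch pathway genes 4 rose (19%) and 2 fell (9.52%), with Hes5 and Hes6 lower and Hes1 and Hey1 higher. Without Control-NSC replicate 1 none of these rises was called by limma, and without Control-NSC replicate 2 only 1 was. Among 18 immediate-early genes, 3 rose (16.7%, beside 7.52% of all genes), 2 fell (11.1%, beside 7.79%) and 13 were not called. Ier3 fell 6.54-fold and Fos rose 2.45-fold. Against the other pNSC groups 12 of the 18 were lower and none was higher, beside 9.94% and 9.84% of all genes. Of 14 genes of the IGF axis 3 fell (21.4%), and Igf2bp3, an RNA-binding protein of fetal growth, fell 3.22-fold. The imprinted gene Mest fell 2.73-fold.

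Calls were spread unevenly over the chromosomes, a pattern looked for after the values were seen. On chromosome 11, 142 of 873 genes (16.3%) were higher in elpNSCs-late and 48 (5.50%) were lower, beside 7.52% and 7.79% of all genes. The median difference was 0.18, and 641 of its genes (73.4%) lay above 0. The next highest share of rises was 9.88%, on chromosome X, where the median was 0.036. Cutting chromosome 11 into 6 blocks in gene order gave medians of 0.13 to 0.22 and shares of 11.6% to 25.3%, so the rise ran along the whole chromosome. By array, the chromosome 11 median relative to the Control-NSC mean was 0.20 and 0.16 in elpNSCs-late, and lay between −0.035 and 0.024 in the other pNSC groups. Against the other pNSC groups 219 of the 873 genes (25.1%) were higher, beside 9.84% of all genes. Without Control-NSC replicate 1 the share was 8.82% beside 4.42% of all genes, and without Control-NSC replicate 2 it was 8.48% beside 4.46%. Hoxb2, Hoxb4, Hoxb5, Hoxb7, Myh8, Rbfox3, Omg and Sox9 lie on this chromosome, and the part of the chromosome-wide shift in their rises was not tested. A chromosome 1 shift ran the other way, with 22 of 522 genes (4.21%) higher, 57 (10.9%) lower and a median of −0.090. The other pNSC groups had chromosome 1 medians of −0.10, −0.13 and −0.14, so this shift was not particular to the late limb line.

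**Figure D5:**
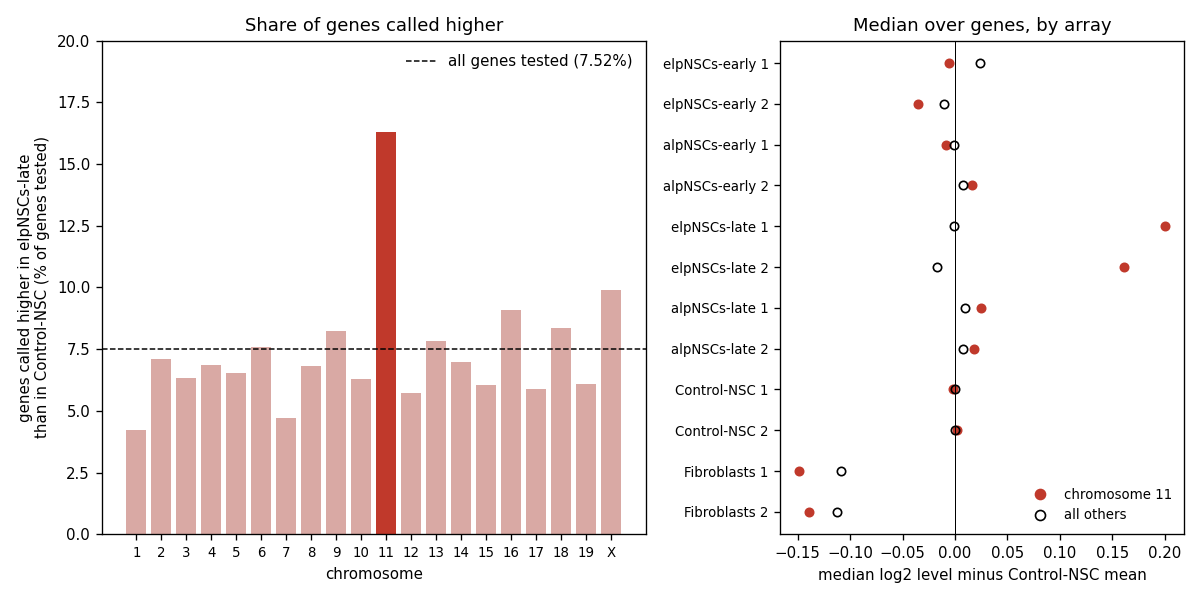
Left, the share of genes tested on each chromosome that were called higher in elpNSCs-late than in Control-NSC, with a dashed line at 7.52% for all genes (chromosome Y, with 4 genes, is not drawn). Right, the median over genes of the log2 level minus the Control-NSC mean for each array, for chromosome 11 (filled) and all others (open); the elpNSCs-late arrays stand at 0.20 and 0.16 on chromosome 11, and the 6 arrays of the other pNSC groups between −0.035 and 0.024.

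Genes of the sex chromosomes were compared as a check of the lines. Eif2s3y, a Y-encoded translation initiation factor, read 4.77 and 5.24 in elpNSCs-late and 8.99 and 8.86 in brain NSCs (15.2-fold lower, adjusted p = 7.71e-08), and was at 4.63 to 5.14 in the other pNSC groups. Kdm5d and Uty, also Y-linked, were detected on all 4 arrays and were not called, at 0.22 ± 0.22 and 0.05 ± 0.12. Xist, the RNA of the inactive X chromosome, was not detected in either group.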

How the data were processed

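RNA of 12 samples was hybridised to Illumina mouse bead arrays (6 groups of 2). The authors deposited raw intensity values with a detection p-value for each of 25697 probes, and a table of background-corrected and normalized log2 values; the submitters' notes name BeadStudio 3.2, RMA and lumi. Raw intensities were corrected with neqc in limma 3.58.1 (R 4.3.3): normexp background correction, its negative controls estimated through detection p-values, then an offset of 16, quantile normalization and log2. Probes detected on 2 or more arrays were kept (14869), and each gene was represented by its brightest probe on average. A symbol was given for 23978 probes, of which 23962 matched RefSeq (GRCm38.p6); 863 kept probes had none. 2738 genes had more than 1 kept probe.

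A limma model over all 12 arrays gave each comparison as a two-sided test with Benjamini-Hochberg adjustment over 10144 genes. The comparison and the gene lists were chosen with earlier results of these data known. Genes named by rule are the 15 largest rises and falls among called genes whose arrays do not overlap. Genes singled out by the study were added, with up to 5 called members of smallest p from each list with at least 3 calls. Lists with fewer calls gave all their called members. The text also names further list members, such as Chac1 and Asns, which this rule does not cover. Alternatives covered background, normalization, filter, probe choice, spread, pairing, fold and single arrays. The fit was tested on simulated data. The number of arrays limits the precision.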

Additional observations from a re-analysis of the deposited data

Results flagged for a closer look

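For 8 genes called against brain NSCs, elpNSCs-late differed from brain NSCs in 1 direction and the mean of the other 3 pNSC groups differed from brain NSCs in the opposite direction, so a difference of elpNSCs-late from that mean is fixed by how these genes were picked and is given as a value without a test. Hes5, a Notch effector, was lower in elpNSCs-late than in the other pNSC groups by a log2 difference of −4.08, Ier3, an immediate-early gene, by −3.79, Gstt1, a glutathione transferase, by −2.82, and Ccn2, a YAP target, by −2.50. Srebf1, the regulator of fatty acid synthesis, differed by −1.90, Zfp36, which destabilises cytokine mRNAs, by −1.67, and Bbc3, the p53 target PUMA, by −1.56. Ndrg1, a hypoxia-induced gene, was higher by 2.55. Among kept probes without a gene symbol, which enter no comparison above, 45 of 863 (5.21%) were called higher in elpNSCs-late than in Control-NSC and 56 (6.49%) lower.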

How the results depend on the processing

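A required change of at least 2-fold left 198 genes higher and 247 lower against Control-NSC, and 126 and 173 against the other pNSC groups. Leaving out single arrays gave 448 to 706 genes higher and 492 to 691 lower against Control-NSC, and 557 to 1159 higher and 560 to 1161 lower against the other pNSC groups. All other alternatives stayed within 1.5 times of the counts reported. Median scaling gave 1431 higher and 730 lower against the other pNSC groups, so that 66.2% of calls were rises in place of 49.8%. Replicate numbers were not taken to pair the arrays, since not every pair of groups had deviations that moved together: deviations from group means correlated between −0.15 and 0.24 over 15 pairs of groups, 10 of them over 0.1, and at 0.071 for elpNSCs-late with Control-NSC. With the replicate number as a block, 833 genes were higher and 874 lower against Control-NSC, and 1100 and 1089 against the other pNSC groups.

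Of 158 called genes named by rule, 93 kept the call under every alternative. Another 44 lost it under at least 1 alternative other than the fold minimum, and 21 lost it under the fold minimum alone. None of the 158 changed sign. The further list members named in the text are not in this count. Among named genes that were not called, Sox2 turned to −0.085 with the mean over kept probes. Leaving out single arrays gave Sox2 differences of −0.027 to 0.39, Olig2 of −0.42 to 0.080, Col1a1 of −0.026 to 0.15 and Ngfr of −0.040 to 0.58, and the cause was not tested. Ngfr was called higher without elpNSCs-late replicate 2 (0.58). Genes near the background of the array have understated changes, since log2 values have a floor.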
